A study of Mus musculus with 2 samples.

Results

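The B cell receptor genes examined here were 9 genes chosen by name: Cd79a, Cd79b, Cd22, Ms4a1, Cr2, Blk and Blnk, called B-restricted below, and Btk and Syk, which B cells share with myeloid cells. All 9 had a row among the 20938 genes of the deposited tables, and all 9 were among the 16659 genes compared, whose mean level over both libraries was at least 1. RNA-seq was performed on splenic Treg cells, enriched as CD4+CD25+ cells with magnetic beads after depletion of non-CD4+ T cells, on day 7 after islet transplantation. One group was Foxp3-Mettl14f/+ cKO mice, in which a Cre recombinase under the Foxp3 promoter acts on 1 floxed Mettl14 allele, so that the other allele stays intact and only Foxp3-expressing cells are targeted. The other group was littermate controls, given as Mettl14f/f mice by the study and as wild type by the sample labels. The labels give the genotype of the cKO library as Foxp3 knockdown, and the study's genotype is used here. Both groups had a C57BL/6J background, were made diabetic with streptozotocin, received BALB/c islets under the kidney capsule, and were not treated with the anti-CD45RB and anti-CD40L antibodies. There was 1 library per group, and the age of the mice and any pooling of animals are not given in the sources used here.

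The B cell receptor is a membrane immunoglobulin that is paired with the signaling chains encoded by Cd79a and Cd79b. When antigen is bound, Src family kinases such as BLK and LYN phosphorylate these chains, SYK docks on them and phosphorylates the adaptor encoded by Blnk, and BTK then activates phospholipase C gamma. CD21, encoded by Cr2, lowers the threshold of this signal when antigen carries complement, whereas CD22 restrains it. The B-restricted genes are not typical products of Treg cells, while SYK also acts downstream of Fc receptors and integrins in macrophages and granulocytes. The B-restricted group is not strictly limited to B cells, since Cr2 is also expressed by follicular dendritic cells, Blnk by macrophages and Blk by plasmacytoid dendritic cells. Of 6 immunoglobulin heavy and light chain genes looked for, 0 had a value in the data used, so these chains were not analysed here.

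The control library held 20239325 recovered reads and the cKO library 18327535, and a level is a read count divided by the size factor of its library. Mettl14, the targeted gene, had 948 reads in the control and 652 in the cKO library (control and cKO reads below), a log2 fold change of -0.31 (95% interval -0.45 to -0.16). With 12 T cell marker genes set equal between the libraries its change was 0.11, so that its direction depended on the scaling. Foxp3, which defines Treg cells, had 1547 and 1361 reads, and the 8 Treg markers, none of them at 0, had summed levels of 6749 and 7178. Levels of marker genes of B cells and macrophages moved along with the members. All 11 B cell markers compared, none of them a member, had levels in the cKO library that were 1.5-fold higher or more, and their summed level was 10133 and 37980 in the control and cKO libraries. All 16 macrophage markers were also at least 1.5-fold higher, with summed levels of 4691 and 16700, and of these Marco had 0 reads in the control library. The 13 granulocyte markers had summed levels of 256457 and 348452, with 3 genes past 1.5-fold upward and 3 downward. The 12 T cell markers had summed levels of 54529 and 42890, and 3 of them were at least 1.5-fold lower. For scale, 17.2% of the 16659 genes compared went up past 1.5-fold and 24.2% went down past it. By these shares, counts of 3 in lists of 12 or 13 genes do not alone set the granulocyte and T cell markers apart. The share of lower genes depends on low values, and at a minimum mean of 10 it was 2035 of 13676 genes. As a set, the T cell markers leaned downward on the deposited scale. Of the 12, only 1 was above 0, and in log2 their median was -0.42, beside -0.04 for all genes compared. Of the 13 granulocyte markers 9 were above 0, with a median of 0.44. In bulk RNA a larger number of cells of a type cannot be told apart from more RNA per cell, and the part of these cell types in the results on the members was not tested.

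Promoter sequences from RefSeq on GRCm38.p6 were found for 6 of the members. Those of Cr2, the member with the largest change, and of Syk are not shown. The 4 sequences shown are of Cd79a, Cd22, Blnk and Btk, and each held 1 match to the motifs named below. Each runs 5′ to 3′ on the strand of the gene, from 250 bases before the transcription start to 50 bases after it. Cd79a lies on the plus strand, and its promoter spans chr7:24897247-24897546. The promoter of Cd22 spans chr7:30878979-30879278, that of Blnk chr19:40994172-40994471 and that of Btk chrX:134583091-134583390, all on the minus strand. For all 4 genes the RefSeq start is not the outermost GENCODE start, so which motifs fall in the window depends on the start used. Capitals mark matches on either strand to ATTTGCAT, the octamer bound by OCT factors, to CCCNNGGG, the core of the motif bound by the B cell factor EBF1, or to GAGGAA, a purine-rich core bound by ETS factors such as PU.1.
Cd79a: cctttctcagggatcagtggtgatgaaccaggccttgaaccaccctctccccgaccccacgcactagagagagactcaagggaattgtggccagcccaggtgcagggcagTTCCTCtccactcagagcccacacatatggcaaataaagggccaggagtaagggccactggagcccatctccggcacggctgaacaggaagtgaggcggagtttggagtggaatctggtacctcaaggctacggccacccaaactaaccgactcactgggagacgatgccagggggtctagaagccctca
Cd22: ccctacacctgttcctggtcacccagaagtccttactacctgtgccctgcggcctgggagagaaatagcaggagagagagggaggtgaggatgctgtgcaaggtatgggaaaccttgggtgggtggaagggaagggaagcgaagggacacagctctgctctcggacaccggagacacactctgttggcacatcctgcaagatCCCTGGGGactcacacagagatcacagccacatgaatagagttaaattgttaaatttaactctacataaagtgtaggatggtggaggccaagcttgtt
Blnk: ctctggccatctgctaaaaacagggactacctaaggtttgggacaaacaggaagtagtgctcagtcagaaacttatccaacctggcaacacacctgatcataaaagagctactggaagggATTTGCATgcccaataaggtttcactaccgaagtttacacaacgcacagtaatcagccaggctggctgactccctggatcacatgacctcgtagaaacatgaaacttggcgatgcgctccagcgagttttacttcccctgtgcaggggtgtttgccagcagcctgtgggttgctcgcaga
Btk: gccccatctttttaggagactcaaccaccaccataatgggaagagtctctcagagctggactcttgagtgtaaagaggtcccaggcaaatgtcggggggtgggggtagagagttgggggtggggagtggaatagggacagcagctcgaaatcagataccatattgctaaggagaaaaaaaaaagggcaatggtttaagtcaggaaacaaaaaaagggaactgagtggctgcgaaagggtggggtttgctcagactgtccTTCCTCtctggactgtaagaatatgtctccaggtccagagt

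The octamer was found in the promoter of Blnk, where it began at -130 relative to the start, and in 1.74% of all 32851 promoters of this length. The EBF1 core was found in the promoter of Cd22 and in 13.7% of all promoters. The purine-rich core was found in the promoters of Cd79a and Btk and at 1 of the 2 starts of Syk, as well as in 28.3% of all promoters. The promoter of Cr2 held none of these 3 motifs. These matches are a description of the letters in this window and not of binding. Only exact matches to the 3 patterns were marked. A promoter without a match to a pattern may therefore still hold a site for that factor with other letters.

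The signaling chains and surface receptors of the complex were higher in the cKO library. Cd79a (ENSMUSG00000003379.7, chr7:24897381-24902197 on GRCm38) had 1012 control and 4318 cKO reads, which are levels of 979 and 4910. The log2 fold change was 2.33 (95% interval 2.23 to 2.43), or 5.01-fold on the scale of levels plus 1. Cd79b, which encodes the partner chain (ENSMUSG00000040592.11) and lies on chr11:106311341-106314762, had 1035 and 3510 reads and levels of 1001 and 3991, a log2 fold change of 1.99 (1.89 to 2.10). The control library held 1.02 Cd79b reads per Cd79a read, and the cKO library 0.813. The log2 change of the ratio was -0.33 (95% interval -0.47 to -0.19), a value that does not depend on how the libraries are scaled.

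Cd22 encodes a sialic acid-binding receptor that recruits the phosphatase SHP-1 to the receptor. It (ENSMUSG00000030577.14) lies on chr7:30865402-30880342 and had 910 control and 4160 cKO reads, with levels of 880 and 4731. Its log2 fold change was 2.42 (2.32 to 2.53), and its ratio to Cd79a changed by 0.10 (-0.05 to 0.24), so a difference from Cd79a was not detectable at this depth. Ms4a1 (ENSMUSG00000024673.9) encodes CD20, the surface protein targeted by B cell-depleting antibodies, and lies on chr19:11249675-11266241. It had 1227 control and 4017 cKO reads, with levels of 1187 and 4568. The log2 fold change of Ms4a1 was 1.94 (1.85 to 2.04), lower than that of Cd79a by 0.38 (the log2 change of their ratio was -0.38, 95% interval -0.52 to -0.25).

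Cr2 (ENSMUSG00000026616.15), the complement receptor gene on chr1:195136811-195176716, had 793 and 4307 reads and levels of 767 and 4898. Its log2 fold change of 2.67 (2.56 to 2.79) was the largest among the 9 members, and 531 of the 16659 genes compared had a larger one. Relative to Cd79a it was higher by 0.35 on the log2 scale (0.20 to 0.50). Cr2 is also made by follicular dendritic cells, and of the 4 markers of these cells with a value, Cxcl13 and Madcam1 had 0 reads in both libraries, Enpp2 had 0 and 19, and Clu had 27 and 109.

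The cytoplasmic members differed more from one another. Blk (ENSMUSG00000014453.4), a Src family kinase gene on chr14:63372836-63417037, had 413 control and 1781 cKO reads, with levels of 400 and 2025. Its log2 fold change was 2.34 (2.19 to 2.50), and its ratio to Cd79a changed by 0.02 (-0.17 to 0.20). Blnk (ENSMUSG00000061132.13), the adaptor gene on chr19:40928927-40994535, had 882 and 1626 reads and levels of 853 and 1849. The change of Blnk, 1.11 (1.0 to 1.24), was the smallest of the B-restricted members, and its ratio to Cd79a changed by -1.21 (-1.37 to -1.05). In the control library there were 0.872 Blnk reads per Cd79a read, and in the cKO library 0.377.

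Among the shared kinases, Syk (ENSMUSG00000021457.14) on chr13:52583173-52648792 had 5385 control and 11280 cKO reads and levels of 5209 and 12827. Its log2 fold change was 1.30 (1.25 to 1.35). Btk (ENSMUSG00000031264.13), the Tec family kinase gene mutated in X-linked agammaglobulinaemia, lies on chrX:134542336-134583570 and had 1374 and 1789 reads, with levels of 1329 and 2034. Its log2 fold change was 0.61 (0.51 to 0.72), the smallest of all members, at 1.53-fold close to the threshold of 1.5, which lies inside this interval. The number of Syk reads per Btk read was 3.92 (control) and 6.31 (cKO), a log2 change of 0.69 (0.57 to 0.80). Annotated genes on the opposite strand overlap Btk (the pseudogene Gm15154), Cd22 (Gm29439) and Ms4a1 (4930526L06Rik). Whether counting used strand is not given in the sources used here, so reads of each pair cannot be told apart in the values of these 3 members.

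**Figure D1:**
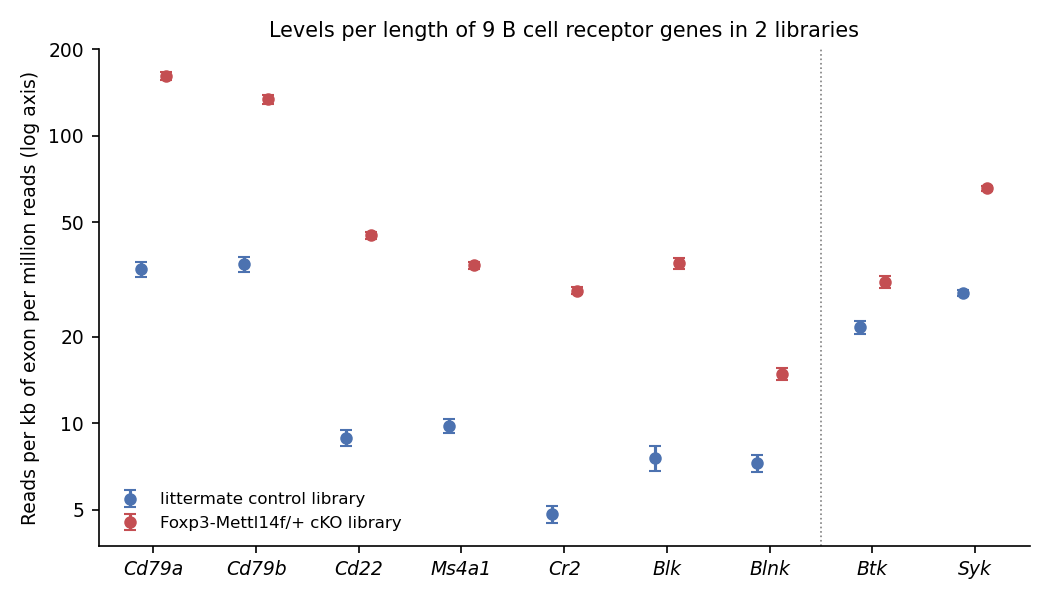
Points give the level per length of each member, in reads per kb of exon per 1000000 reads on a log axis, in the littermate control library (blue) and the Foxp3-Mettl14f/+ cKO library (red), and bars are 95% exact Poisson intervals that cover counting error. Cd79a was at 34.3 and 162 in the 2 libraries, and Btk, right of the dotted line with Syk, at 21.6 and 31.0.

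For comparison between genes, reads were divided by the length of all annotated exons of the gene, which gives reads per kb per 1000000 reads. In the control library the order from the highest was Cd79b at 35.7, Cd79a at 34.3, Syk at 28.4, Btk at 21.6, Ms4a1 at 9.80, Cd22 at 8.92, Blk at 7.56, Blnk at 7.27 and Cr2 at 4.83. The counting intervals of Cd79b and Cd79a overlapped there, as did those of Ms4a1 and Cd22 and those of Blk and Blnk. In the cKO library the order was Cd79a at 162, Cd79b at 134, Syk at 65.7, Cd22 at 45.0, Blk at 36.0, Ms4a1 at 35.4, Btk at 31.0, Cr2 at 29.0 and Blnk at 14.8. Here the intervals of Blk and Ms4a1 overlapped, and those of Btk and Cr2. In both libraries the immunoglobulin-associated chains were at the top, and Btk moved from above Ms4a1 in the control library to below it in the cKO library. The exon annotation is GENCODE vM21, and the annotation used for counting is not given in the sources used here, so these orders depend on the exons assumed.

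Across the members as a group, 7 of 7 B-restricted genes and both shared kinases were higher in the cKO library by 1.5-fold or more, while 17.2% of the 16659 genes compared were higher and 24.2% lower by that much. At a threshold of 2-fold, 8 of the 9 members were higher, all except Btk, against 10.3% of the genes compared. The median log2 fold change was 2.33 for the B-restricted members and -0.04 for all genes compared. With the T cell markers set equal these medians were 2.74 and 0.37, a shift of all genes that leaves the order of the members unchanged, and 65.5% of the changed genes were then higher, against 41.6% on the deposited scale. Summed over the B-restricted members 309.9 (control) and 1294 (cKO) of every 1000000 reads were found. For Btk and Syk together these values were 334 and 713. Most of the members are also among the genes that the study listed as higher in these same libraries, so their direction is not independent evidence.

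**Figure D2:**
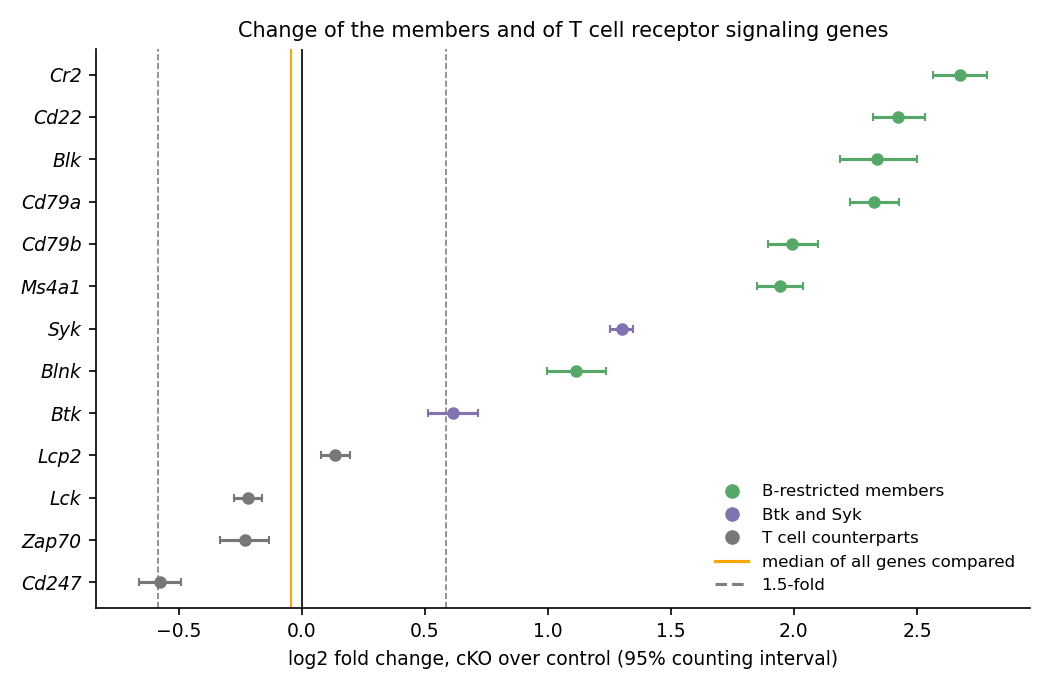
The horizontal axis gives the log2 fold change of the cKO library over the control library, with 95% exact intervals of the counting error, for the 7 B-restricted members (green), Btk and Syk (purple) and 4 T cell receptor signaling genes named in the text (grey). The orange line marks the median of all genes compared, -0.04, and the members run from 0.61 for Btk to 2.67 for Cr2, all to the right of the T cell genes.

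Counting error alone was examined with an exact binomial test of the reads, a comparison of these libraries rather than of genotypes. With a change of at least 1.5-fold also required, it called all 9 members higher, along with 14.8% of the 14863 genes tested. When the coefficient of variation between mice was assumed to be 0.4 in edgeR's exact test, as a stand-in for a spread that 1 library per group cannot give, 1 member, Cr2, was called, and 1.54% of the genes tested were called higher. The differences of the other 8 members were therefore not past the threshold if mice vary by that much.

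The B-restricted genes were next compared with Btk and Syk inside each library, where the scaling of the libraries cancels. Per Btk read, all 7 B-restricted genes had more reads in the cKO library, and the log2 change of the ratio ran from 0.50 for Blnk (95% interval 0.34 to 0.66) to 2.06 for Cr2 (1.91 to 2.21). The number of Cd79a reads per Btk read was 0.737 (control) and 2.41 (cKO). Per Syk read, 6 of the 7 genes had more reads in the cKO library, from 0.64 for Ms4a1 (0.54 to 0.75) to 1.37 for Cr2 (1.25 to 1.50). Blnk was the exception, with 0.164 and 0.144 reads per Syk read and a log2 change of -0.18 (-0.31 to -0.06). Blnk thus lay between the shared kinases, above Btk and below Syk, and apart from the other 6 B-restricted members. These 14 ratios share their denominators, their intervals were not adjusted for their number, and they cover counting error only.

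**Figure D3:**
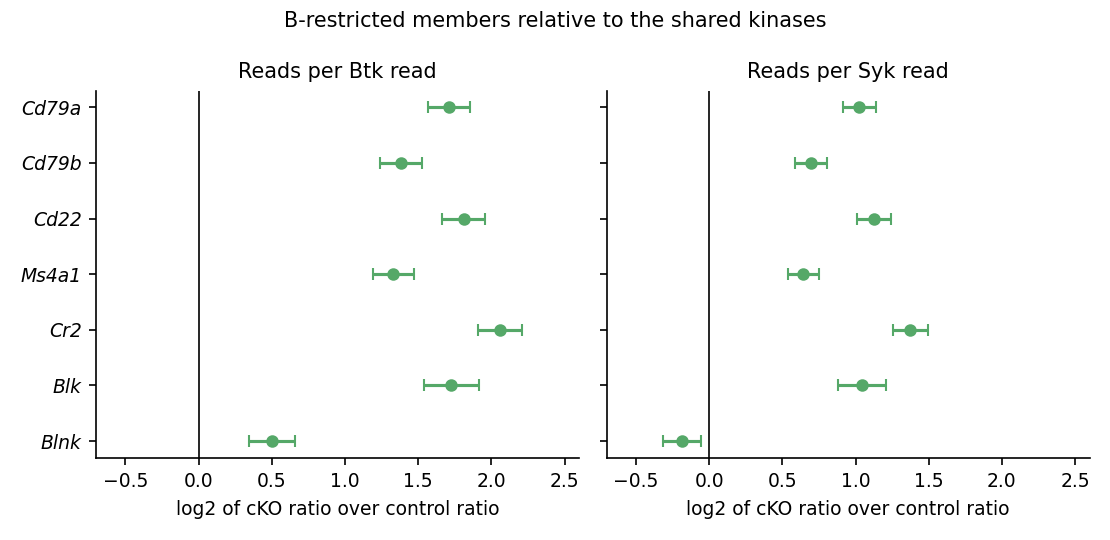
Points give the log2 of the ratio of each B-restricted gene to Btk (left) or Syk (right) in the cKO library over the same ratio in the control library, and bars are 95% exact conditional intervals of the counting error. Every point except that of Blnk against Syk, at -0.18, is above 0.

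The members were also set against reads of the marker lists. Per 1000 reads of the T cell markers, the 7 B-restricted genes together had 111 control and 629 cKO reads. Per 1000 reads of the B cell markers these values were 599 and 710, a log2 change of 0.25, much smaller than the 2.50 per T cell marker read. In the control library, 3027 of the 10475 B cell marker reads were of Pou2af1 and 2391 of Cd37. These genes had small log2 fold changes, 0.63 and 0.94, and weigh heavily in the sum. By median log2 fold change the B cell markers were higher, at 2.52, than the B-restricted members, at 2.33. Syk had 514 and 338 reads per 1000 B cell marker reads, and Btk had 131 and 53.6. Per 1000 macrophage marker reads, Syk had 1111 and 768 and Btk had 283 and 122. Per 1000 granulocyte marker reads, Syk had 20.3 and 36.8 and Btk had 5.18 and 5.84. Btk and Syk thus differed between the libraries by less than the summed B cell and macrophage markers and by more than the summed granulocyte markers.

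Of 40 further genes of the pathway with a value, 22 were higher and 0 lower by 1.5-fold or more, beside 17.2% higher and 24.2% lower among all genes compared. Their median log2 fold change was 0.74, and that of all genes -0.04. The counts by role that follow are to be read against the same shares. Of the genes named below, Bank1 is also in the B cell marker list. Among coreceptors and surface partners, 4 of 5 genes were past 1.5-fold. Cd40, the receptor for T cell help on B cells and other antigen-presenting cells, had the largest change of this list, 2.76 (2.38 to 3.19), from 61 to 356 reads, close to that of Cr2. Cd38 and Cd180 changed by 1.97 and 1.84. Cd81, a tetraspanin that many cell types express, had a log2 fold change of 0.18 (0.08 to 0.29) and was the gene of this list within 1.5-fold.

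Of 6 Src and Tec family kinases, 4 were past 1.5-fold. The largest change was in Lyn, the main Src kinase of B cells, which is shared with myeloid cells, at 1.17 (1.11 to 1.22), from 4030 to 7698 reads. The myeloid kinase Fgr changed by 0.96, and Tec, a paralogue of Btk, by 0.88. Fyn, which T cells use, had 4268 and 3750 reads and a change of 0.05 (-0.02 to 0.11), while Yes1, at 90 and 73 reads, had a change of -0.07. Every one of these kinases changed by less than Blk.

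Among 8 adaptors 3 were past 1.5-fold. Bank1, a B cell scaffold, changed by 2.52 (2.42 to 2.63), from 886 to 4328 reads, and Pik3ap1, an adaptor for phosphoinositide 3-kinase, by 1.33. Shc1 had the lowest value of the list, -0.14. Among 12 effectors 5 were past 1.5-fold, with Prkcb, the protein kinase C of B cell receptor signaling, highest at 1.60 (1.55 to 1.66), from 3575 to 9253 reads. Plcg2, the substrate of SYK and BTK, had 3611 and 5556 reads and changed by 0.85 (0.79 to 0.92). Stim1 was lowest at -0.17. Bcl10 and Malt1, which T cells also use downstream of their receptor, had log2 fold changes of 0.11 and 0.69, of which that of Malt1 was past 1.5-fold.

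Among 9 inhibitors 6 were past 1.5-fold and all 9 were above 0. Siglecg, a B cell relative of Cd22, was highest at 2.25 (2.08 to 2.42), from 373 to 1508 reads. Cd72, another inhibitory B cell receptor, changed by 1.60, and Fcgr2b, the inhibitory Fc receptor that macrophages share, by 0.95. Ptpn6, which encodes the SHP-1 recruited by CD22, had a log2 fold change of 0.45 (0.40 to 0.50), and Csk was lowest at 0.36. With the T cell markers set equal, 10 genes of these lists that had been within 1.5-fold, Ptpn6, Csk and Cd81 among them, were past it.

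**Figure D4:**
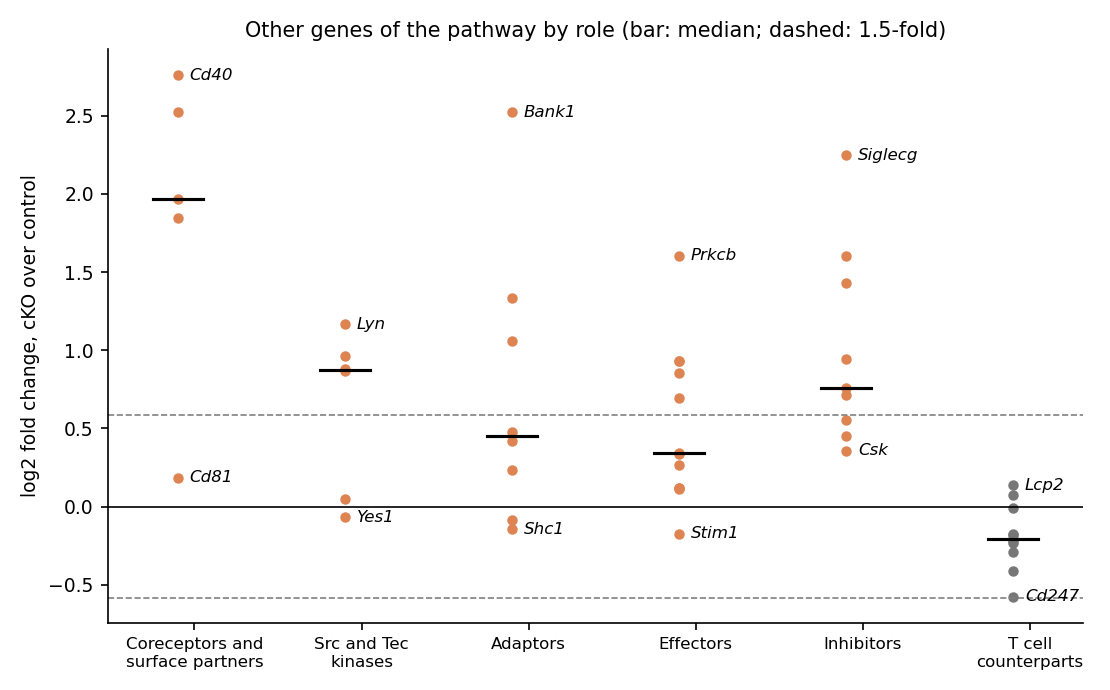
Each point is the log2 fold change of 1 gene of the pathway in the cKO library over the control library, grouped by role, with black bars at the medians and dashed lines at 1.5-fold. The medians run from 1.97 for the coreceptors and surface partners to -0.21 for the T cell counterparts, and the highest and lowest gene of each group is named.

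The T cell receptor uses relatives of several members, and 11 of these T cell counterparts were compared. None was past 1.5-fold in either direction on the deposited scale, and their median log2 fold change was -0.21, or 0.21 with the T cell markers set equal. Cd247, the zeta chain, was lowest at -0.58 (-0.66 to -0.49) and was past 1.5-fold with the TMM and median-of-ratios scalings, at -0.60 and -0.59. Lcp2, the T cell relative of Blnk, was highest at 0.14, with 5024 and 4701 reads. Within each library the B cell relative was set against its T cell relative. The number of Syk reads per Zap70 read was 2.78 (control) and 8.04 (cKO), a log2 change of 1.53 (95% interval 1.42 to 1.64). The number of Blk reads per Lck read was 0.0746 (control) and 0.440 (cKO), a change of 2.56 (2.39 to 2.73). The ratio of Blnk to Lcp2 was 0.176 and 0.346, a change of 0.98 (0.85 to 1.11). In all 7 such pairs the ratio was higher in the cKO library. Zap70 is the kinase of this family that T cells use, and per length it was at 32.0 and 25.6 reads per kb per 1000000 reads in the control and cKO libraries, beside 28.4 and 65.7 for Syk.

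The genes nearest to the median change of the B-restricted members, among 7237 other genes whose mean level reached 500, were Fcrl1, March1 and Abca1. Fcrl1, a B cell Fc receptor-like gene, changed by 2.33, March1, a ubiquitin ligase of antigen-presenting cells, by 2.31, and Abca1, a cholesterol exporter of macrophages, by 2.35. Only 10 of these genes lay within 0.1 of the median, and over 2 libraries the likeness is no more than a similar fold change.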

How the data were processed

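RNA-seq libraries from splenic Treg cells of littermate controls and Foxp3-Mettl14f/+ cKO mice, 1 of each, were analysed. The authors aligned reads to the mouse genome (mm10) with TopHat; the submitters' processing notes also name bcl2fastq 2.0, STAR, StringTie and DESeq2 without a role, and the counting tool and annotation are not given in the sources used here. The deposited values are a signal, namely gene counts scaled by a single size factor in each library: 100% of them were whole multiples (tolerance 0.01) of the smallest value, 0.967 or 1.14. Dividing by it recovered the reads.

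Changes were log2((cKO + 1)/(control + 1)) of deposited levels for genes with a mean of at least 1, and a fold of 1.5, as in the study's methods, was the threshold. With 1 library per group there is no replicate error, and no p-value is given. Intervals (95%) are Clopper-Pearson for changes, exact Poisson for levels and exact conditional for ratios, and counting error is all they cover. The study's methods name no molecular identifiers, so PCR copies may count as separate reads. A floor of 3 reads is 0.148 and 0.164 per 1000000 reads in the control and cKO libraries. The binomial test used genes with at least 10 reads, TMM-scaled totals and an adjusted p under 0.1. Its counts of genes called, and those of edgeR's exact test, also required a change of at least 1.5-fold. Named genes were the members, the genes of pathway lists whose role is described with the highest and lowest of each list, and the 3 genes nearest to the B-restricted median. Members and lists were chosen with earlier results of these data known. The steps were tested on simulated data that held counting error only. Variation between mice was not simulated, so that test cannot show how the calls behave when mice vary.

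Positions and exon lengths came from GENCODE vM21 (GRCm38) and promoters from RefSeq (GRCm38.p6). Alternatives were other pseudocounts, filters, scalings, fold thresholds and count tests. Python 3.11.15, scipy 1.17.1, R 4.3.3, edgeR 4.0.16 and DESeq2 1.42.0 were used. Some genes of the lists are counted but not reported by name here.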

Additional observations from a re-analysis of the deposited data

How the results depend on the processing

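No paired analysis was possible because only 1 library represents each genotype, and for the same reason no library could be left out. With a pseudocount of 0.1 or 5, no filter on low values, a minimum mean of 10, and TMM or median-of-ratios scaling, the values of the members stayed within their counting intervals; Btk was at 0.59 and 0.60 with these scalings, just past 1.5-fold. Setting the T cell markers equal moved the B-restricted median to 2.74, Btk to 1.03, Syk to 1.72, the median of the T cell counterparts to 0.21, the median of all genes to 0.37 and the number of higher genes to 5781 from 2864. The differences of the B-restricted median from Btk, 1.71, and from Syk, 1.03, are no check of the scalings. Apart from the pseudocount, the scaling of the libraries cancels in them. A minimum mean of 10 kept 13676 of the 16659 genes. It moved the number of lower genes from 4028 to 2035 and that of higher genes from 2864 to 2112. Many of the lower genes thus had a mean under 10. The share of higher genes among the changed ones was then 50.9%, against 41.6% in the main setting. The share of 24.2% lower among all genes compared therefore depends on the filter for low values. A fold threshold of 2 moved the number of higher genes to 1722 and of further pathway genes to 12 from 22. With an assumed coefficient of variation of 0.4 in edgeR's exact test, 229 genes were called higher and 569 lower, against 2197 and 2617 by the binomial test. Depth leaves the place of Btk relative to 1.5-fold and the differences of Cd22 and Blk from Cd79a within counting error, and the spread between mice is not known for any member.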

Other observations

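The lists of this paragraph, except the plasma cell markers, were chosen after the data were seen, and the values are given as a description. Counts here and in the next paragraph are to be read beside the shares of all genes compared. Of those genes, 17.2% were higher and 24.2% lower by 1.5-fold or more. Plasma cells, which come from B cells but lose much of this receptor, had 7 markers with a median log2 fold change of 0.11, 2 at least 1.5-fold higher and 0 lower. Jchain, the joining chain of secreted antibodies, had 34138 control and 30035 cKO reads and a change of 0.05. The plasma cell genes Sdc1 and Derl3 had changes of -0.37 and -0.27, whereas Tnfrsf17, a receptor of plasma cells, changed by 1.09 from 81 to 148 reads. Of 7 genes of B cell precursors, 5 were compared, and 2 were higher, 2 lower and 1 neither by 1.5-fold. Rag1 had 29 and 193 reads and Rag2 had 12 and 24, both of them recombinase genes, with changes of 2.92 (95% interval 2.40 to 3.58) and 1.17 (0.18 to 2.37). Dntt, the terminal transferase gene, went the other way, with 125 and 49 reads and a change of -1.10 (-1.63 to -0.63), and Igll1 was listed at 27 and 0 reads. Cd93, which other cell types also express, had 1222 and 1414 reads and a change of 0.44, while Vpreb1 and Vpreb2 were listed at 0 in both libraries. Of 8 genes of B cell subsets, 4 were higher and 0 lower by 1.5-fold or more, with a median of 0.59. S1pr3 of marginal zone B cells had 84 and 340 reads and a change of 2.24 (1.90 to 2.61), whereas Cd24a had 14101 and 8680 reads and a change of -0.47, and Ccr7 had a change of -0.05. Bcl6, which T cells and macrophages also express, had 1644 and 2242 reads and a change of 0.68.

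Plasmacytoid dendritic cell markers, 5 genes, had summed levels of 1094 and 1609 in the control and cKO libraries and 4 of them were at least 1.5-fold higher. Siglech had 105 and 200 reads and Ccr9 had 268 and 450, but the other genes of this count had few reads, Klk1 with 6 and 11 and Cox6a2 with 5 and 7, and their counting intervals held 0. The 8 Treg markers had a median change of -0.02, with Lrrc32 highest at 1.35 and Tnfrsf4 lowest at -0.68.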
